A study of Mus musculus with 8 samples.

Results

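Gpnmb, Acp5, Ctsk and Atp6v0d2 were followed together with the 4 MiT/TFE transcription factors Mitf, Tfec, Tfeb and Tfe3 in sorted mouse blood monocytes. These 8 genes, of 18193 measured, were chosen by name with earlier results of these arrays known, so the bead differences of Gpnmb and Acp5, after which the set was named, and the comparison of those differences between the subsets are given as a description without a test. Where several probe sets were annotated to a gene alone, the brightest on average across the arrays was used and the others served as a check; 11 such probe sets of 34945 belonged to the 8 genes.

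Male C57BL/6 mice had received fluorescent latex beads of 1 µm by vein, and blood monocytes were sorted 4 days later. The groups were nonclassical Gr1lo (Ly-6C low) monocytes carrying beads, Gr1lo monocytes without beads, classical Gr1hi (Ly-6C high) monocytes carrying beads and Gr1hi monocytes without beads. Every group came from bead-injected mice, so bead-free cells are cells that had taken up no beads and not cells of untreated animals. The design text places a depletion with clodronate liposomes, which kill phagocytes, 3 days before the beads for both subsets, whereas the treatment protocol gives it for Gr1hi cells alone (in that case the subsets also differ in pretreatment). Each group had 2 arrays, called biological replicates in the design text, and the number of mice or cells behind an array is not given in the sources used here. With 8 arrays the precision is limited by their number.

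MiT/TFE factors are basic helix-loop-helix leucine zipper proteins that bind E-box sequences as dimers with each other. They are largely controlled by location: the kinase mTORC1 phosphorylates them at the lysosome surface and keeps them in the cytoplasm, and they enter the nucleus when lysosomes are stressed or nutrients are short, so a transcript level says little about their activity. Their targets include genes of lysosomes and of bone-resorbing osteoclasts, among them Acp5 (tartrate-resistant acid phosphatase), Ctsk (the collagen-cleaving protease cathepsin K), Atp6v0d2 (a membrane subunit of the vacuolar proton pump) and Gpnmb (a membrane glycoprotein of lysosome-rich and lipid-laden macrophages).

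Promoter sequences are shown for Gpnmb and Acp5, which differed between the subsets in opposite directions. Ctsk, which was called between the subsets without beads but not with them, is shown as well. RefSeq windows of 300 bases, from 250 before to 50 after an annotated start, were matched by symbol for 7 of the 8 genes, 14 windows in all (GRCm38.p6). Both strands were searched for CATGTG, the core of the M-box that MITF binds, for CACGTG, the core of the lysosomal CLEAR element, and for the longer TCATGTG and TCACGTG, which contain them. Capitals mark matches, and each sequence runs 5′ to 3′ on the strand of its gene. The Gpnmb window lies at chr6:49036268-49036567 and the Ctsk window at chr3:95498960-95499259, both on the plus strand. The Acp5 window lies at chr9:22130549-22130848 on the minus strand. It is the third of 3 listed for that gene and the only one of them with a match.
Gpnmb: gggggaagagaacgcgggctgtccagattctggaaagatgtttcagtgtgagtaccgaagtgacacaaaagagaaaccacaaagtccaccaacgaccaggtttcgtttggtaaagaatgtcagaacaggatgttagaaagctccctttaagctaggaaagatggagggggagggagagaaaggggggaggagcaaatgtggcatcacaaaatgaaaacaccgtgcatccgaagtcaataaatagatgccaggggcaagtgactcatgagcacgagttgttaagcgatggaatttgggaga
Acp5: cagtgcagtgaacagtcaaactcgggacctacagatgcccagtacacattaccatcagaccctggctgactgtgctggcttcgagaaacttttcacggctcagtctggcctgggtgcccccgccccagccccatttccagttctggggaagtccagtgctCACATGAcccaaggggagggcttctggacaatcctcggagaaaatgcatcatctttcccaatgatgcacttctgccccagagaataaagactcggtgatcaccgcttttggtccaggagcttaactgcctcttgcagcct
Ctsk: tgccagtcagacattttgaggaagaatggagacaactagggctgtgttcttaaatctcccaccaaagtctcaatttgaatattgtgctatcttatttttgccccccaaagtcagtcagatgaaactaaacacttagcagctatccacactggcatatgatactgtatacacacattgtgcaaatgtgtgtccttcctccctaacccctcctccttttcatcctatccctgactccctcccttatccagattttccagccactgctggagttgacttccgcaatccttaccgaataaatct
The Acp5 window held the only match among the 14 windows. It was CACATGA, the reverse complement of TCATGTG, and began 90 bases before the start site. Of 32851 mouse windows of this length, 14.15% held CATGTG and 3.77% held TCATGTG, while CACGTG was in 7.15% and TCACGTG in 3.77%. No match in the other windows says only that these letters were not within them.

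Values are log2 expression as normalised by the authors. A background level of 6.98 was taken as the 95th percentile of the mean levels of 115 genes for smell, taste and hair keratin partners, which blood monocytes are not known to use. The array medians lay between 6.12 and 6.19, and 8615 to 8865 genes per array exceeded the background level. Pairs of arrays of a group correlated at 0.9935 to 0.9963 across probe sets, and pairs from different subsets at 0.9714 to 0.9776. The sorted populations carried the markers of their names. The mean of 9 nonclassical markers was 11.98 to 12.28 in the Gr1lo groups and 8.83 to 9.40 in the Gr1hi groups, while that of 6 measured classical markers was 9.14 to 11.59 in the Gr1lo groups and 12.86 to 13.17 in the Gr1hi groups. Bulk arrays cannot tell fewer expressing cells from less RNA per cell.

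Gpnmb was the gene with the widest span in the set, and its level differed with both subset and bead state. It was at 8.64 and 8.09 in Gr1lo cells with beads, 6.25 and 6.16 in Gr1lo cells without, 11.33 and 11.52 in Gr1hi cells with beads, and 9.94 and 10.12 in Gr1hi cells without. The 4 groups did not overlap, in the order Gr1hi with beads, Gr1hi without, Gr1lo with and Gr1lo without. Bead-free Gr1lo cells were the only group under the background level on both arrays. With beads the mean was higher by 2.16 ± 0.17 (moderated SE) in Gr1lo cells, 4.47-fold as measured and at least 2.62-fold when the bead-free level is set to the background level. In Gr1hi cells it was higher by 1.39 ± 0.17, or 2.63-fold. Over all genes, 1 gene had a larger bead difference in Gr1lo cells and 4 had one in Gr1hi cells. The second Gpnmb probe set was dim, above background on 1 array, and showed 0.22 ± 0.20 in Gr1lo cells and 1.77 ± 0.20 in Gr1hi cells. With both probe sets averaged, the difference in Gr1lo cells was 1.19.

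**Figure D1:**
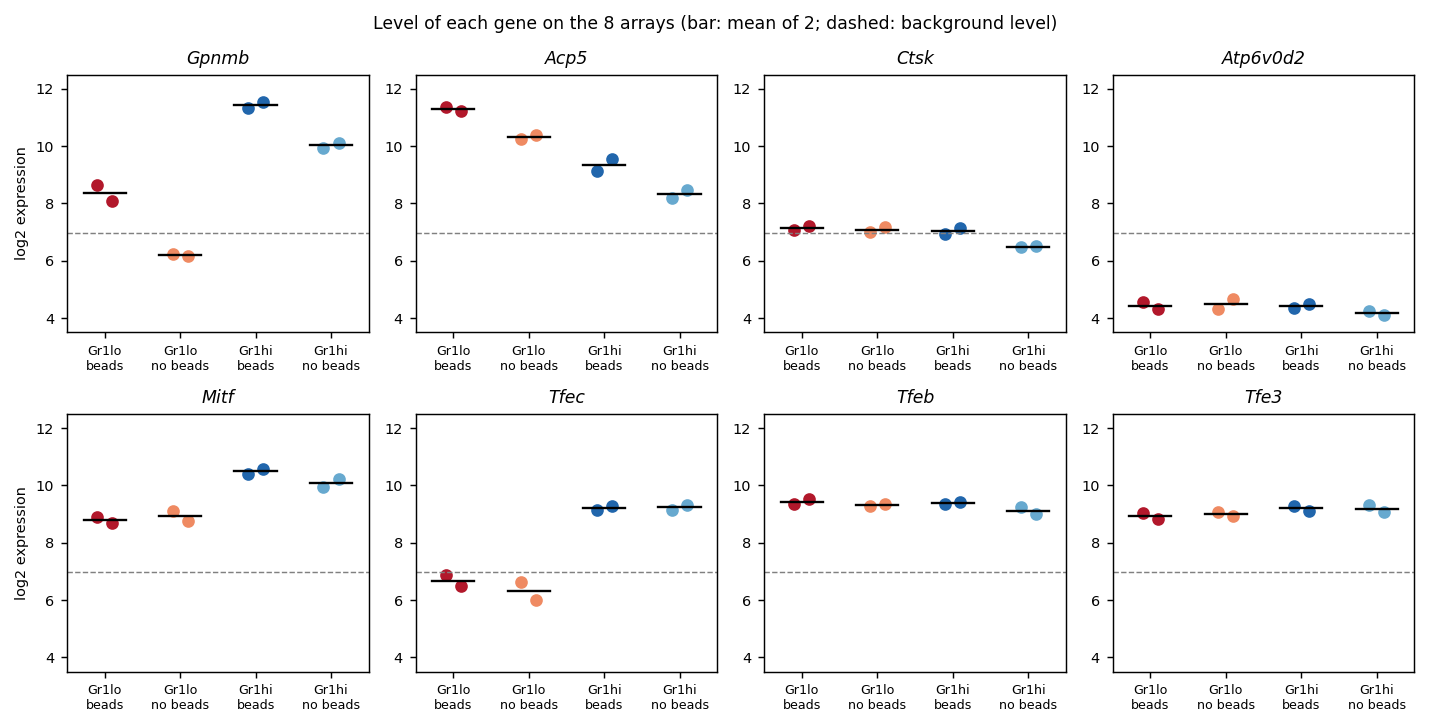
Log2 expression of the 8 genes on each array, with targets in the upper row and MiT/TFE factors in the lower. Points are arrays (2 per group), bars are group means and the dashed line is the background level of 6.98. Gpnmb is highest in Gr1hi cells with beads (11.33 and 11.52), Acp5 in Gr1lo cells with beads (11.35 and 11.22), and Tfec lies under the line in all 4 Gr1lo arrays.

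Acp5 shared the bead difference of Gpnmb but had the opposite subset pattern. Its levels were 11.35 and 11.22 in Gr1lo cells with beads, 10.25 and 10.38 in Gr1lo cells without, 9.12 and 9.55 in Gr1hi cells with beads, and 8.19 and 8.48 in Gr1hi cells without. All 8 arrays were above background and the 4 groups again did not overlap. Bead carriers exceeded bead-free cells by 0.97 ± 0.15 in Gr1lo and by 1.00 ± 0.15 in Gr1hi monocytes, about the same fold in both. The difference between these bead effects, Gr1lo minus Gr1hi, was -0.03 ± 0.22. For Gpnmb it was 0.77 ± 0.24 with the brighter probe set and -0.39 when both probe sets were averaged. The 0.77 rests on bead-free Gr1lo values under background. With these set to the background level, the Gr1lo bead difference was at least 1.39, against 1.39 in Gr1hi cells. The second probe set was under background on every Gr1lo array (4.12 to 4.62), so the sign of this difference is not settled.

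Subset differences of both genes were called in opposite directions. Both genes were chosen with earlier results of these arrays known. Their calls below, and the counts of the 8 genes that include them, are therefore a description and not independent support. Gpnmb was lower in Gr1lo than in Gr1hi cells, with a log2 difference (Gr1lo minus Gr1hi) of -3.06 ± 0.17 with beads (limma adjusted p = 8.41e-06) and of -3.83 ± 0.17 without (adjusted p = 3.43e-06). Against the background level, bead-free Gr1lo cells had at least 8.30-fold less Gpnmb than bead-free Gr1hi cells. Acp5 was higher in Gr1lo cells by 1.95 ± 0.15 with beads (limma adjusted p = 4.97e-05) and by 1.98 ± 0.15 without (adjusted p = 6.00e-05), close to 4-fold in each case (3.87 and 3.95). Many genes separate the subsets. With beads 26.5% of all genes were called, 11.8% higher and 14.6% lower in Gr1lo cells, and of the 8 genes 1 was called higher and 3 lower. Without beads 23.6% of all genes were called, 10.0% higher and 13.6% lower, and of the 8 genes 2 were called higher and 3 lower. The arrays of the subsets did not overlap for 5 of the 8 genes with beads, 1 higher and 4 lower, where 61.4% of all genes did not overlap (26.8% higher and 34.6% lower). Without beads they did not overlap for 7 of the 8, 4 higher and 3 lower, where 62.0% of all genes did not (21.5% higher and 40.5% lower).

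Ctsk and Atp6v0d2 were low on these arrays. Ctsk, the main collagenase of osteoclasts, read 7.06 and 7.22 in Gr1lo cells with beads, 7.02 and 7.16 in Gr1lo cells without, 6.93 and 7.14 in Gr1hi cells with beads, and 6.47 and 6.51 in Gr1hi cells without. Bead-free Gr1hi cells stood below the other 3 groups, which overlapped. Ctsk was higher in Gr1lo than in Gr1hi cells without beads by 0.60 ± 0.11 (limma adjusted p = 0.00411), which is at least 1.08-fold against the background level because both bead-free Gr1hi arrays were under it, but not detectably so with beads (0.11 ± 0.11, 95% interval -0.14 to 0.35, adjusted p = 0.531). Its bead differences were 0.05 ± 0.11 in Gr1lo and 0.55 ± 0.11 in Gr1hi cells (limma adjusted p = 0.860 and 0.111), and both values sit near background, where log2 differences are compressed.

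For Atp6v0d2, which in osteoclasts and some macrophages replaces the ubiquitous d1 subunit, both probe sets were under background on every array, with values of 3.77 to 4.65, so no fold is given. The ubiquitous Atp6v0d1 was at 10.78 ± 0.02 with beads and 10.82 ± 0.03 without in Gr1lo cells, and at 11.55 ± 0.05 with beads and 11.41 ± 0.08 without in Gr1hi cells (SD, n = 2). It was lower in Gr1lo than in Gr1hi cells by -0.77 ± 0.08 with beads and -0.59 ± 0.08 without (limma adjusted p = 2.57e-04 and 0.00136).

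Among the factors, Mitf and Tfec separated the subsets. Mitf, best known as the master regulator of pigment cells and a regulator of osteoclasts, was at 8.88 and 8.69 in Gr1lo cells with beads, 9.11 and 8.77 in Gr1lo cells without, 10.42 and 10.59 in Gr1hi cells with beads, and 9.96 and 10.23 in Gr1hi cells without. The 2 Gr1lo groups overlapped each other and lay below both Gr1hi groups, which did not overlap. Mitf was lower in Gr1lo cells by -1.71 ± 0.15 with beads (limma adjusted p = 7.43e-05) and by -1.15 ± 0.15 without (adjusted p = 7.76e-04). Its second probe set was under background on all 8 arrays and passed in neither comparison, and with both averaged the differences were -0.83 with beads and -0.75 without, both still called.

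Tfec, a relative of Mitf expressed largely in myeloid cells, showed the larger separation. It read 6.86 and 6.50 in Gr1lo cells with beads, 6.64 and 5.99 in Gr1lo cells without, 9.15 and 9.28 in Gr1hi cells with beads, and 9.16 and 9.32 in Gr1hi cells without. All 4 Gr1lo arrays were under background and all 4 Gr1hi arrays at least 2.29 above every Gr1lo array. The difference between the subsets was -2.54 ± 0.20 with beads (limma adjusted p = 5.38e-05) and -2.92 ± 0.20 without (adjusted p = 3.63e-05), at least 4.72-fold and 4.80-fold lower in Gr1lo cells against the background level.

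Tfeb and Tfe3, the broadly expressed members of the family and its main links to lysosome genes, varied little. Tfeb was at 9.35 and 9.52 in Gr1lo cells with beads, 9.30 and 9.35 in Gr1lo cells without, 9.35 and 9.41 in Gr1hi cells with beads, and 9.25 and 9.0 in Gr1hi cells without. Tfe3 was at 9.02 and 8.81 in Gr1lo cells with beads, 9.07 and 8.92 in Gr1lo cells without, 9.30 and 9.12 in Gr1hi cells with beads, and 9.31 and 9.06 in Gr1hi cells without. Bead-free Gr1hi cells were lowest for Tfeb without overlapping the group above, and for Tfe3 every neighbouring pair of groups overlapped. The subset differences were 0.05 ± 0.11 with beads and 0.20 ± 0.11 without for Tfeb (limma adjusted p = 0.777 and 0.230). For Tfe3 they were -0.29 ± 0.12 and -0.19 ± 0.12 (limma adjusted p = 0.124 and 0.325). The Tfe3 difference with beads was called in 2 of 18 other settings tried.

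**Figure D2:**
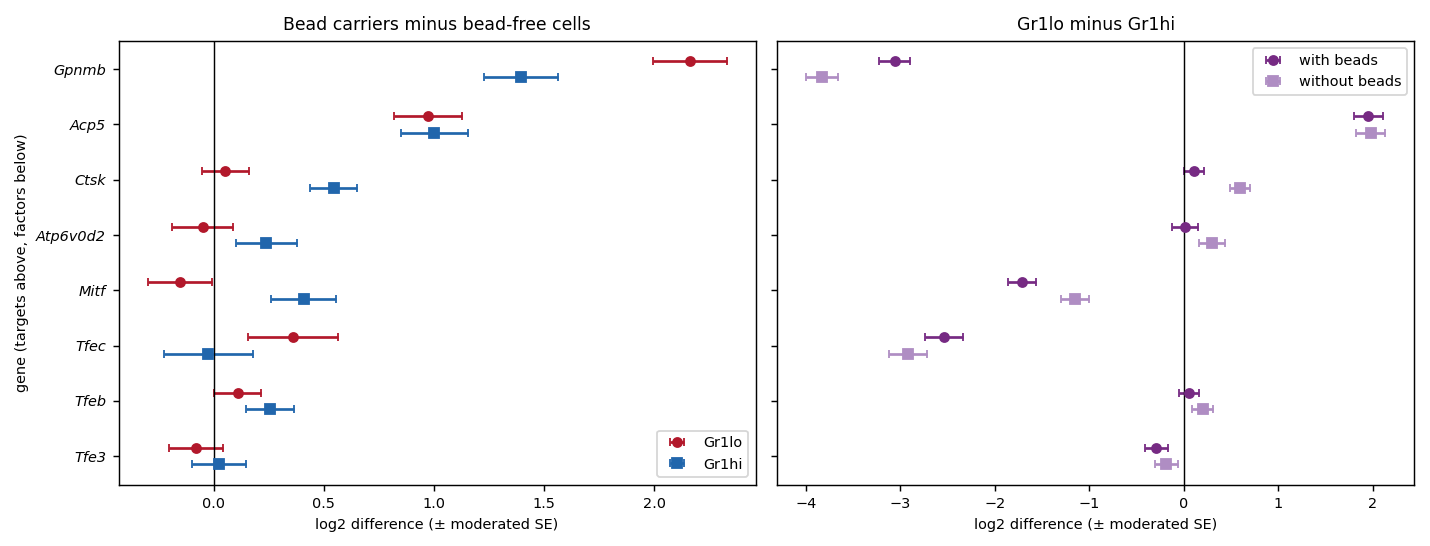
Log2 differences of the 8 genes with moderated standard errors, for beads against no beads in each subset (left) and Gr1lo against Gr1hi cells at each bead state (right). Gpnmb and Acp5 lie right of 0 on the left panel in both subsets and on opposite sides of 0 on the right panel, where Mitf and Tfec lie with Gpnmb.

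No factor was called for beads. Of the 6 genes other than Gpnmb and Acp5, 0 passed in limma in Gr1lo cells and 0 in Gr1hi cells, where 0.225% of all genes were called in Gr1lo cells (0.0824% higher and 0.143% lower) and 0.247% in Gr1hi cells (0.148% higher and 0.0989% lower). At an unadjusted p under 0.05 in limma these counts were 0 and 3, against 13.2% and 9.93% of all genes. The 3 were Ctsk, Mitf and Tfeb. Mitf differed by -0.15 ± 0.15 in Gr1lo and 0.41 ± 0.15 in Gr1hi cells (95% intervals -0.49 to 0.18 and 0.08 to 0.74, limma adjusted p = 0.683 and 0.405). Tfec differed by 0.36 ± 0.20 in Gr1lo cells, with both groups under background, and by -0.02 ± 0.20 in Gr1hi cells (adjusted p = 0.475 and 0.980). Tfeb differed by 0.11 ± 0.11 in Gr1lo and 0.26 ± 0.11 in Gr1hi cells (adjusted p = 0.690 and 0.482), and Tfe3 by -0.08 ± 0.12 in Gr1lo and 0.02 ± 0.12 in Gr1hi cells (adjusted p = 0.812 and 0.973). For beads the arrays of these 6 genes did not overlap for 0 in Gr1lo cells, where 42.7% of all genes did not (23.3% higher and 19.4% lower). They did not overlap for 4 in Gr1hi cells, all 4 higher, where 44.2% of all genes did not (19.2% higher and 25.0% lower). None of the 6 bead effects differed between the subsets by the limma test (0.0440% of all genes were called, 0.0110% higher and 0.0330% lower). Before adjustment in limma 2 were under 0.05, namely Ctsk (-0.49 ± 0.15) and Mitf (-0.56 ± 0.21), against 7.84% of all genes.

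Factor and target levels were therefore set side by side by comparison. Between the subsets, Mitf and Tfec went the way of Gpnmb, lower in Gr1lo cells at both bead states, and against Acp5, which was higher there, and Ctsk, which was higher without beads. Between bead states in Gr1lo cells, Gpnmb was 2.16 higher and Acp5 0.97 higher, while the factors lay between -0.15 and 0.36. Ctsk (0.05) and Atp6v0d2 (-0.05, under background) lay within that range. In Gr1hi cells the differences were 1.39 for Gpnmb, 1.00 for Acp5 and 0.55 for Ctsk, and 0.24 for Atp6v0d2 under background, while the factors lay between -0.02 and 0.41. None of the tested differences, those of the other 6 genes, was called. The arrays fell into separate subsets with 4 arrays each, too few for a correlation of factor with target within a subset, and a pooled correlation would repeat the subset difference.

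**Figure D3:**
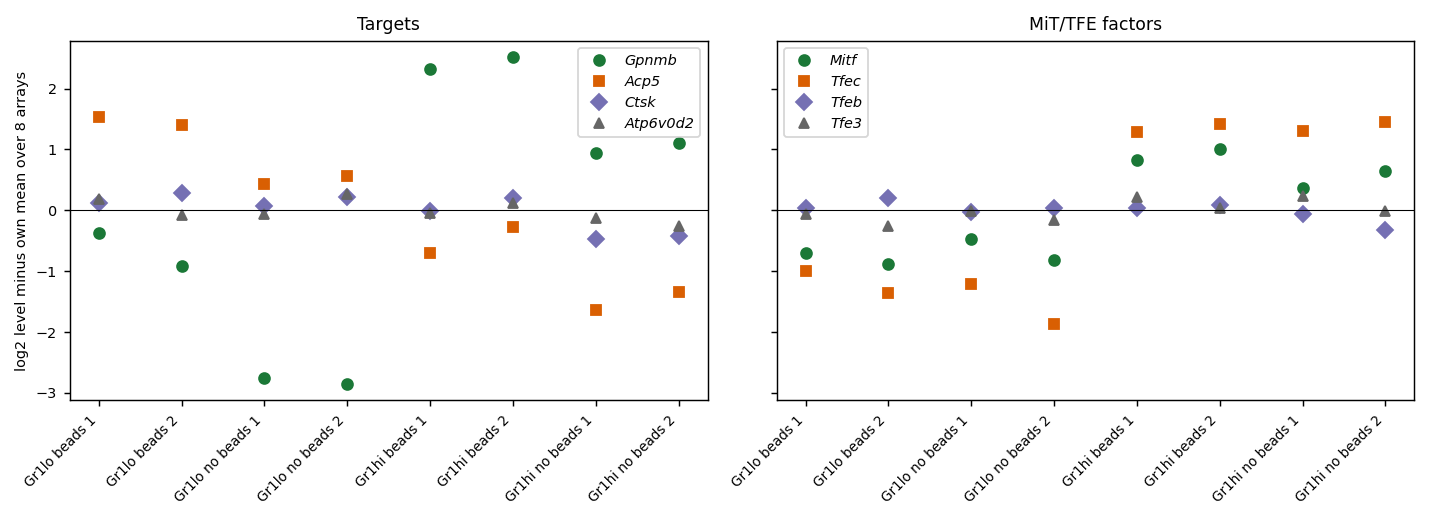
Log2 level of each target (left) and each MiT/TFE factor (right) on the 8 arrays, after subtraction of the gene's own mean over the arrays. Gpnmb is lowest in bead-free Gr1lo cells and highest in bead-carrying Gr1hi cells, Acp5 runs the other way between subsets, and Mitf and Tfec step between subsets with little change by bead state.

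The genes most like Gpnmb over the 8 arrays, by the root mean square difference of centred log2 values among 9307 genes above background in a group, were Cd200r4 (0.79), Nt5dc2 (0.81), Fnip2 (0.84), Snx24 (0.93) and Cd93 (0.95). Gpnmb itself varied by 1.95 about its mean on this scale, so the likeness was partial. Snx24 carried the bead pattern too, at 8.66 with beads and 7.54 without in Gr1hi cells. In Gr1lo cells it was at 7.02 with beads, close to the background level, and at 5.75 without, under it. Cd200r4, an activating relative of the CD200 receptor, was at 5.22 with beads and 4.93 without in Gr1lo cells and at 8.75 with beads and 8.36 without in Gr1hi cells, so it followed Gpnmb mainly between the subsets. Its Gr1lo means were under background, as were those of Nt5dc2 (5.40 with beads and 5.18 without), so these likenesses rest in part on background readings. For Acp5, which varied by 1.11, likeness was closer. The genes were the lipid-sensing nuclear receptor Pparg (0.32), Abcg3 (0.33), the guanylate-binding protein Gbp8 (0.35), the lipid carrier Apoe (0.35) and the receptor kinase Grk3 (0.37). Pparg was at 10.47 with beads and 9.80 without in Gr1lo cells, and at 8.32 and 7.18 in Gr1hi cells. Gbp8 was above background on average only in Gr1lo cells with beads (8.13). It was at 6.44 in Gr1lo cells without, and at 5.99 with beads and 4.48 without in Gr1hi cells.

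Upstream controls of the family were read from a list of 26 genes of nutrient and calcium signalling to MiT/TFE factors, of which 24 were measured. The list covers mTORC1, the Rag GTPases and Ragulator that recruit it to lysosomes, folliculin with its partners, and calcineurin, which dephosphorylates TFEB. None was called for beads in either subset, where 0.225% of all genes were in Gr1lo and 0.247% in Gr1hi cells. In limma 2 of the 24 in Gr1lo and 8 in Gr1hi cells had an unadjusted p under 0.05, against 13.2% and 9.93% of all genes. The list's median bead difference was -0.05 in Gr1lo cells, against 0.02 over all genes, and -0.03 in Gr1hi cells, against -0.02 over all genes. Mtor, the kinase itself, differed by 0.10 ± 0.09 with beads in Gr1lo and by -0.02 ± 0.09 in Gr1hi cells.

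Between the subsets 5 of the 24 were higher and 9 lower in Gr1lo cells with beads (median -0.13, against -0.03 over all genes), and 4 higher and 9 lower without (median -0.07, as over all genes). Over all genes, 11.8% were called higher and 14.6% lower with beads, and 10.0% higher and 13.6% lower without. Fnip2, a folliculin partner, was at 8.32 and 7.90 in Gr1lo cells with beads, 8.13 and 7.79 in Gr1lo cells without, 11.24 and 11.04 in Gr1hi cells with beads, and 10.62 and 10.56 in Gr1hi cells without. It was lower in Gr1lo cells by -3.03 ± 0.16 with beads and -2.63 ± 0.16 without (limma adjusted p = 7.54e-06 and 1.79e-05). Folliculin itself, Flcn, which lets Rag GTPases present TFEB and TFE3 to mTORC1, was lower in Gr1lo cells by -1.49 ± 0.12 and -0.99 ± 0.12 (adjusted p = 6.01e-05 and 6.79e-04). The Rag GTPase Rragc was lower as well, by -0.99 ± 0.12 and -0.46 ± 0.12 (limma adjusted p = 4.37e-04 and 0.0225), and the Ragulator subunit Lamtor4 by -0.94 ± 0.12 and -0.71 ± 0.12 (adjusted p = 6.63e-04 and 0.00354). Also lower was the folliculin partner Fnip1, by -1.06 ± 0.15 with beads and -0.56 ± 0.15 without (limma adjusted p = 9.78e-04 and 0.0263). The Ragulator subunit Lamtor2 was lower by -0.52 ± 0.11 and -0.53 ± 0.11 (adjusted p = 0.00693 and 0.00780). The Rag GTPase Rraga was lower without beads (-0.80 ± 0.14, adjusted p = 0.00405) but not detectably so with beads (0.03 ± 0.14, adjusted p = 0.903). Ppp3r1, the regulatory subunit of calcineurin, was higher by 0.70 ± 0.09 and 0.57 ± 0.09 (limma adjusted p = 7.66e-04 and 0.00283). Rragd, a Rag gene that TFEB itself can induce, was under background in every group, so its call with beads (-0.46 ± 0.11 in Gr1lo against Gr1hi cells, adjusted p = 0.0180) compares dim values. With beads in Gr1hi cells Fnip2, Flcn and Rragc differed by 0.55 ± 0.16, 0.49 ± 0.12 and 0.40 ± 0.12 without being called (limma adjusted p = 0.309, 0.222 and 0.314). In Gr1lo cells the same genes differed by 0.15, -0.01 and -0.13.

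CLEAR network genes, the lysosome and autophagy genes that carry the TFEB element, were represented by 33 measured genes of 36 listed, several of them shared with the previous list. None was called for beads (0.225% of all genes in Gr1lo and 0.247% in Gr1hi cells). In limma 5 had an unadjusted p under 0.05 in Gr1lo cells, 1 higher and 4 lower, and 7 had one in Gr1hi cells, all higher. Over all genes such p values were found for 6.27% higher and 6.93% lower in Gr1lo cells, and for 3.94% higher and 5.99% lower in Gr1hi cells. The median bead difference was -0.03 in Gr1lo cells and 0.13 in Gr1hi cells, against 0.02 and -0.02 over all genes. Between subsets 1 was higher and 17 lower in Gr1lo cells with beads, and 2 higher and 15 lower without, with list medians of -0.28 and -0.30 against -0.03 and -0.07 over all genes. The shares over all genes were 11.8% higher and 14.6% lower with beads, and 10.0% and 13.6% without. Gla, the lysosomal alpha-galactosidase, was at 5.89 and 6.18 in Gr1lo cells with beads, 6.48 and 6.07 in Gr1lo cells without, 9.27 and 9.41 in Gr1hi cells with beads, and 8.65 and 8.76 in Gr1hi cells without. All Gr1lo arrays were under background for Gla, and the subset difference was -3.31 ± 0.15 with beads and -2.43 ± 0.15 without as measured (limma adjusted p = 3.57e-06 and 1.84e-05), or at least 5.15-fold and 3.31-fold lower in Gr1lo cells against the background level. The protease Ctsd was lower in Gr1lo cells by -1.19 ± 0.18 and -1.26 ± 0.18 (limma adjusted p = 0.00147 and 0.00141). The membrane protein Lamp2 was lower by -0.73 ± 0.08 and -0.59 ± 0.08 (adjusted p = 3.40e-04 and 0.00138). Atp6v1h, a soluble subunit of the proton pump, was lower by -0.92 ± 0.09 with beads and -0.565 ± 0.09 without (adjusted p = 1.34e-04 and 0.00216). Lamp1 was lower by -0.28 ± 0.08 and -0.38 ± 0.08 (adjusted p = 0.0296 and 0.00912). Sqstm1, the autophagy receptor p62, went the other way without beads, by 0.66 ± 0.12 (limma adjusted p = 0.00525), and did not pass with beads (0.10 ± 0.12, adjusted p = 0.601).

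Osteoclast type genes were read from a list of 18, all measured. Of these, 0 were called for beads in Gr1lo cells (0.225% of all genes), where limma also left 0 at an unadjusted p under 0.05 (13.2% of all genes). Such a p was found for 2 in Gr1hi cells, 1 higher and 1 lower (9.93% of all genes). In Gr1hi cells 1 was called (0.247% of all genes), the gelatinase Mmp9, which is abundant in neutrophils and stands on the neutrophil marker list as well. On the arrays Mmp9 was at 7.05 and 6.96, the second under background, with beads and 7.87 and 7.95 without (-0.91 ± 0.11, limma adjusted p = 0.0280). Between the subsets 3 were higher and 5 lower in Gr1lo cells with beads, and 2 higher and 3 lower without (medians -0.06 and -0.08, against -0.03 and -0.07 over all genes). Of all genes, 26.5% were called with beads and 23.6% without. Dcstamp, needed for osteoclast fusion, and the receptor Oscar were under background in all 4 groups, between 6.19 and 6.42 on average. Tcirg1, the a3 subunit of the proton pump, was at 9.94 to 10.04 in all groups. Nfatc1, the factor that with MITF drives osteoclast genes, was higher in Gr1lo cells by 1.05 ± 0.10 with beads and 0.77 ± 0.10 without (limma adjusted p = 1.52e-04 and 0.00105), in the direction of Acp5. Tnfrsf11a, which encodes the RANK receptor, was lower there by -0.68 ± 0.12 and -0.61 ± 0.12 (adjusted p = 0.00383 and 0.00789), at least 1.27-fold and 1.24-fold because all 4 Gr1lo arrays were under background. Clcn7, a lysosomal chloride transporter, was lower by -0.54 ± 0.09 and -0.52 ± 0.09 (limma adjusted p = 0.00203 and 0.00329), and Csf1r, the receptor of M-CSF, higher by 0.42 ± 0.08 and 0.46 ± 0.08 (adjusted p = 0.00387 and 0.00323). Plekhm1, a lysosome trafficking protein, was lower with beads (-0.44 ± 0.09, adjusted p = 0.00626). The 7 pigment cell targets of MITF on the list, such as Tyr and Pmel, had mean levels under background, and 0 were called for beads in either subset. With limma 1 of them, higher, had an unadjusted p under 0.05 in Gr1lo cells, against 13.2% of all genes. In Gr1hi cells 2 had one, both lower, against 9.93% of all genes.

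Genes of lipid-associated macrophages, the cells in which Gpnmb is commonly described, split between the subsets. Of 16 measured, 5 were higher and 10 lower in Gr1lo cells with beads, and 5 higher and 8 lower without (medians -0.54 and -0.36, against -0.03 and -0.07 over all genes). Of all genes, 11.8% were called higher and 14.6% lower with beads, and 10.0% and 13.6% without. Trem2, the lipid receptor, was lower in Gr1lo cells by -1.89 ± 0.12 and -1.54 ± 0.12 (limma adjusted p = 1.44e-05 and 5.10e-05), like Gpnmb. The tetraspanin Cd9 was higher by 3.03 ± 0.13 and 2.94 ± 0.13 (adjusted p = 3.25e-06 and 3.94e-06), like Acp5. The integrin chain Itgax was higher by 4.44 ± 0.15 with beads and 4.83 ± 0.15 without (limma adjusted p = 8.73e-07 and 6.74e-07), while the cathepsin inhibitor Cstb was lower by -1.79 ± 0.10 and -1.46 ± 0.10 (adjusted p = 1.17e-05 and 4.04e-05). Anxa4, an annexin, was lower with beads (-1.98 ± 0.13, limma adjusted p = 2.51e-05). Its mean was also lower without beads, at 10.11 in Gr1lo against 11.51 in Gr1hi cells. Without beads the scavenger receptor Cd36 (6.22 ± 0.37), the fatty acid carrier Fabp4 (5.70 ± 0.41) and Apoe (2.04 ± 0.14) were higher in Gr1lo cells (limma adjusted p = 1.72e-05, 4.17e-05 and 3.05e-05). Bead-free Gr1hi cells were under background for Itgax, Cd36 and Fabp4, so against that level the 3 were at least 26.9-fold, 28.3-fold and 26.8-fold higher. With beads the Gr1lo means were also above the Gr1hi means. They were 11.90 against 6.86 for Cd36, 12.08 against 7.28 for Fabp4 and 13.76 against 12.33 for Apoe. For beads, 0 of the 16 were called in Gr1lo cells (0.225% of all genes) and 1 in Gr1hi cells (0.247% of all genes). At an unadjusted p under 0.05 in limma there were 5 in Gr1lo cells, 1 higher and 4 lower, and 7 in Gr1hi cells, all higher. Over all genes these shares were 6.27% higher and 6.93% lower in Gr1lo cells, and 3.94% higher and 5.99% lower in Gr1hi cells. The gene called in Gr1hi cells was the fatty acid binding protein Fabp5, at 12.55 and 12.54 with beads against 11.24 and 11.19 without. In Gr1lo cells Fabp5 was at 10.67 and 10.43 with beads and 10.75 and 10.56 without, and its bead effect differed between the subsets by -1.44 ± 0.15 (limma adjusted p = 0.0253). Trem2 differed with beads by -0.35 ± 0.12 in Gr1lo and -0.01 ± 0.12 in Gr1hi cells (limma adjusted p = 0.276 and 0.992). Lgals3, which encodes galectin-3, differed by -0.32 ± 0.08 in Gr1lo and 0.04 ± 0.08 in Gr1hi cells (adjusted p = 0.176 and 0.910).

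**Figure D4:**
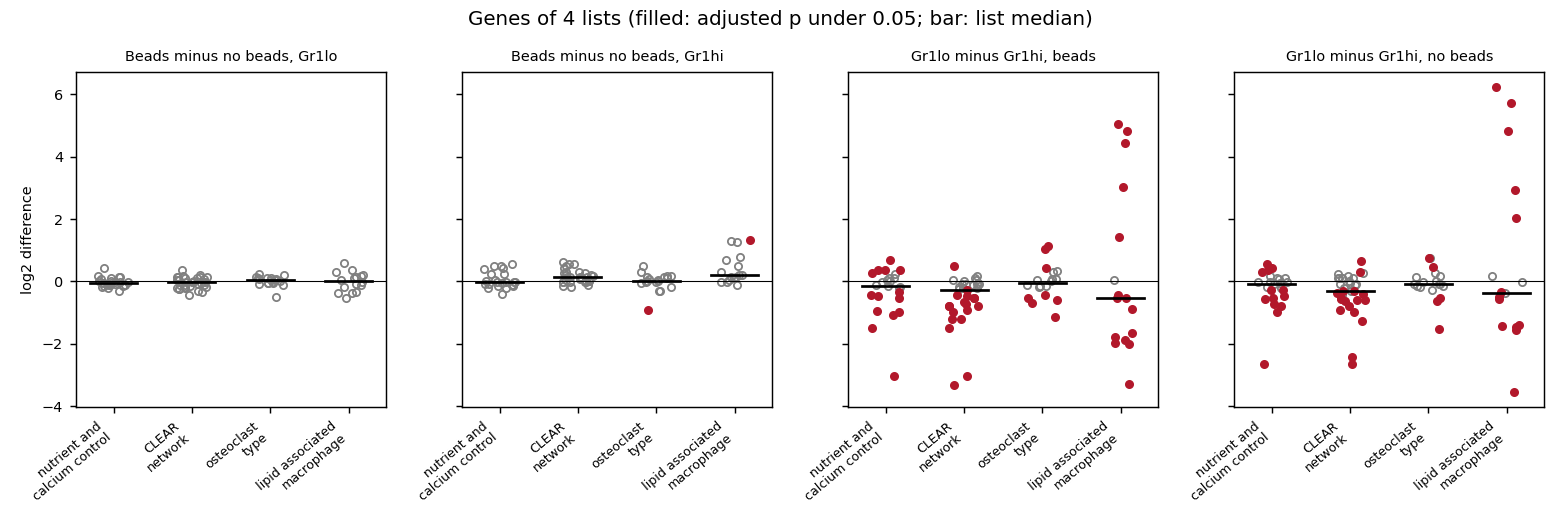
Log2 differences of single genes in 4 lists for beads in each subset and for Gr1lo against Gr1hi cells at each bead state. Filled points are genes called at a limma adjusted p under 0.05 and bars are list medians. In the bead panels 0 genes are filled in Gr1lo cells and 2, Mmp9 and Fabp5, in Gr1hi cells, whereas in the panels of Gr1lo against Gr1hi cells filled points lie on both sides of 0.

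Controls of the assay and markers of other cells differed with bead state in part, and their part in the bead differences was not tested. Poly-A controls, bacterial transcripts added during labelling, averaged 10.45 ± 0.01 with beads and 8.98 ± 0.41 without in Gr1lo cells (SD, n = 2), and 9.65 ± 0.28 with beads and 7.93 ± 0.26 without in Gr1hi cells. Hybridisation controls averaged 12.01 ± 0.24 with beads and 10.94 ± 0.22 without in Gr1lo cells, and 11.32 with beads and 11.13 without in Gr1hi cells. The difference between 3′ and 5′ probe sets, a sign of RNA integrity, was 0.56 and 0.58 with beads and 0.40 and 0.42 without for Actb in Gr1lo cells, without overlap, and for Gapdh it averaged 0.08 with beads and -0.06 without. In Gr1hi cells these differences overlapped between bead states.

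The mean of 15 tissue macrophage markers was 7.86 and 7.61 with beads and 8.21 and 6.77 without in Gr1lo cells, which overlapped, and 7.71 and 7.74 with beads and 7.09 and 7.19 without in Gr1hi cells, which did not. Of these markers 6 were above background on all 8 arrays and 3 under it on all 8. Some single markers did separate bead states in both subsets. The iron exporter Slc40a1 averaged 9.30 with beads and 6.32 without in Gr1lo cells, and 9.08 and 7.88 in Gr1hi cells. The factor Spic averaged 8.84 with beads and 7.76 without in Gr1lo cells, and 8.74 and 7.27 in Gr1hi cells. Some of the other markers did not follow this in Gr1lo cells. Hmox1 was higher without beads, at 6.975 and 6.71 with beads and 8.30 and 7.05 without. Mrc1 overlapped, at 8.25 and 7.72 with beads and 9.46 and 7.10 without, the second bead-free array being the lowest. Vsig4 overlapped too, at 6.04 and 5.93 with beads and 7.71 and 5.96 without, above background only on the first bead-free array. C1qb overlapped between bead states in Gr1lo cells, at 11.87 and 11.32 with beads and 12.06 and 9.37 without. In Gr1hi cells the C1q genes were higher with beads and did not overlap. There C1qa averaged 8.65 with beads and 7.30 without, C1qb 11.24 and 9.86, and C1qc 9.27 and 7.96. The first bead-free Gr1lo array also stood apart for the macrophage genes Cd163 (7.25, against 4.61 on the second) and Timd4 (7.13 against 5.04). So it did for C1qa (11.37 against 8.16) and C1qc (10.77 against 7.74). Gpnmb was at 6.25 on that array and 6.16 on the other, and without that array its bead difference in Gr1lo cells was 2.21.

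Some other lists also separated bead states in Gr1lo cells. Bead-free cells were higher for dendritic cell, NK cell and classical monocyte markers, and bead carriers were higher for B cell markers. Over 7 B cell markers the mean was 6.12 and 6.19 with beads and 5.96 and 5.87 without, 6 of the 7 being under background on all arrays. The mean of 8 dendritic cell markers was 6.32 and 6.21 with beads and 6.93 and 6.83 without, with Cd209a averaging 6.76 with beads and 9.90 without, and Clec10a 7.20 with beads and 8.67 without. Flt3 averaged 7.80 with beads and 8.35 without. Of the 8, 5 were under background on all arrays and changed little. Zbtb46 averaged 6.66 with beads and 6.56 without, Xcr1 5.73 and 5.66, and Siglech 5.70 and 5.56. For Itgae the means were 4.95 and 4.99, and for Ccr7 5.33 and 5.35. The mean of 7 NK cell markers was 5.64 and 5.75 with beads and 6.03 and 6.01 without, 5 of the 7 being under background on all arrays. Klrd1 averaged 5.27 with beads and 7.67 without, and the other NK markers changed less. Ncr1 averaged 5.96 with beads and 5.87 without, Gzma 7.34 and 7.33, and Gzmb 6.00 and 5.84. For Prf1 the means were 5.82 and 5.95, for Eomes 4.70 and 4.64, and for Klre1 4.77 and 4.84. Classical monocyte markers were at 9.22 and 9.14 with beads and 11.59 and 10.92 without. In Gr1hi cells the dendritic means were 6.62 and 6.57 with beads and 6.62 and 6.57 without. The mean of 11 neutrophil markers was 6.47 and 6.57 with beads and 6.81 and 6.55 without in Gr1lo cells, which overlapped, and 8.50 and 8.20 with beads and 9.12 and 8.86 without in Gr1hi cells, which did not. Of 5 osteoclast markers 4 were under background on all 8 arrays.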

How the data were processed

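Amplified, biotin-labelled RNA of sorted monocytes was read on Affymetrix GeneChip 430 2.0 arrays, 1 per sample, per the labels and design text. The authors deposited log2 expression values of 45101 probe sets on 8 arrays with 0 missing, made with RMA per the submitters' processing notes and with oligo and limma in R per the design text; their versions and the chip definition are not stated there. Scans were not reprocessed, so background correction could not be varied.

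Gene names came from GEO's platform annotation, and 34741 probe sets matched RefSeq of GRCm38.p6 by Entrez number with 0 symbols changed. Probe sets with several symbols (932), without a symbol (9160) or for controls (64) were left out. For 18193 genes, limma 3.58.1 in R 4.3.3 (lmFit, eBayes) estimated the mean of each of 4 groups from the 8 arrays jointly, with prior degrees of freedom of 4.48 and Benjamini-Hochberg correction over all genes. Calls required an adjusted p below 0.05 (two-sided), and intervals cover 95%. The members, lists and rules were chosen with earlier results of these data known. Named are the members, genes fixed for each list and the called list genes of smallest p. Spp1 and Cd63 had no probe set of their own here. The fit was tested on simulated data. Same-numbered arrays deviated together within subsets (correlation of deviations 0.273 in Gr1lo and 0.36 in Gr1hi) and hardly across them (-0.02 to 0.085). The labels do not say what a number marks. Python 3.11.15 with pandas 2.3.3 served for tables and matplotlib 3.10.9 for plots.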

Additional observations from a re-analysis of the deposited data

How the results depend on the processing

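The directions and calls of Gpnmb, Acp5, Mitf and Tfec between the subsets held in all 18 settings tried. Their sizes moved by over 1.5 times only when probe sets were averaged, to -0.83 with beads and -0.75 without for Mitf and to -2.41 without beads for Gpnmb, whose bead difference in Gr1lo cells became 1.19. Tfe3 between subsets with beads was called with the replicate number as a block (-0.29, limma adjusted p = 0.0261). With that block the called genes numbered 54 for beads in Gr1lo, 56 for beads in Gr1hi, 5177 and 4663 for the subsets with and without beads, and 10 for the difference between bead effects. A block within each subset, chosen after seeing the data, gave 106 and 102 for beads. The labels tie the numbers to nothing shared.

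Counts of called genes moved by more than 1.5 times as follows. For beads in Gr1lo, 41 became 127 with trend and robust estimation and 12 with the compared arrays alone. For beads in Gr1hi, 45 became 121 with trend and robust estimation, 104 with array weights and 68 with every probe set. Every probe set gave 8302 and 7277 for the subsets with and without beads, and 13 for the difference between bead effects, which was 17 with trend and robust estimation and 5 with probe sets averaged or dim genes left out (8 as reported). Leaving out each array gave 17 to 354 for beads in Gr1lo, the highest without array 2 of bead-free Gr1lo cells, and 0 to 58 in Gr1hi cells, with 0 without either bead-carrying Gr1hi array or bead-free Gr1hi array 1 (1218 to 1335 genes then had an unadjusted p under 0.05 in limma). The same gave 3267 to 4964 and 2631 to 4125 for the subsets with and without beads, and 1 to 167 for the difference, the highest without bead-free Gr1lo array 2.

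Small differences that were not called changed sign. Averaged probe sets turned the difference of Gpnmb between bead effects to -0.39, and Atp6v0d2 to -0.0108 between subsets with beads and 0.0517 for beads in Gr1lo; Tfec for beads in Gr1hi was 2e-04 with cyclic loess. Leaving out arrays gave, for beads in Gr1lo, -0.0255 to 0.13 for Ctsk, -0.22 to 0.12 for Atp6v0d2, -0.33 to 0.0195 for Mitf and -0.18 to 0.024 for Tfe3. For beads in Gr1hi it gave -0.10 to 0.054 for Tfec and -0.10 to 0.15 for Tfe3. Between subsets with beads it gave -5e-04 to 0.21 for Ctsk, -0.12 to 0.15 for Atp6v0d2 and -0.031 to 0.14 for Tfeb, and for the difference between bead effects -0.24 to 0.18 for Acp5 and -0.23 to 0.018 for Tfe3. The cause of these changes was not tested. Genes near background, Ctsk and Atp6v0d2 among them, limit what these arrays can show.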
